A study of Mus musculus with 7 samples.

Results

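The wild-type baseline of this study consists of 3 of its 7 arrays, those labelled as brown fat of wild-type mice (replicates 1, 3 and 4). After the array's control probe sets were left out, the brightest probe set that names a single gene, by mean signal over these 3 arrays, stood for each gene, which gave 18193 genes. The mice were male C57BL/6J animals on day 3 after birth, and total RNA of 1 sample was hybridised to each array. The other 4 arrays (KO replicates 1 to 4) carried RNA from brown fat of males of the same strain and age with a knockout of Gyk, the gene of glycerol kinase. They enter here as a second set in which the spread between arrays can be read, and the genotypes are not compared. Replicates carry a number in the labels, which do not state that each came from its own animal, so the spread below may be technical in part.

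Brown fat burns fatty acids to make heat. Uncoupling protein 1 (Ucp1) lets protons flow back across the inner mitochondrial membrane without making ATP, so that the respiratory chain runs fast and its energy is released as warmth. Fatty acids reach the mitochondria from the cell's own lipid droplets and from blood lipoproteins, and noradrenaline and thyroid hormone drive the programme. Newborn mice depend on this tissue to keep warm.

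All 6 brown fat markers stood at the top of the signal range on every wild-type array. Ucp1 read 29963 on replicate 1, 29264 on replicate 3 and 33706 on replicate 4 (mean 30978 ± 2389, SD, n = 3), and ranked 4th of the 18193 genes by mean signal. Fabp4, a fatty acid carrier of fat cells, read 32021, 31019 and 35208 in the same order of arrays and ranked 3rd. Cox8b, a subunit of cytochrome c oxidase found in brown fat and muscle, read 31208, 26884 and 32524. Replicate 3 had the lowest and replicate 4 the highest deposited signal for each of these genes, but this order turned with the scaling: of the 6 markers, replicate 4 was highest for 4 as deposited and for 1 with median scaling or quantile normalization, and replicate 1 for 2, 5 and 3.

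The remaining markers lay slightly lower in the ranking. Cidea, a lipid droplet protein of thermogenic fat, read 25924, 22358 and 27583 and ranked 32nd. Fabp3, the heart-type fatty acid binding protein, read 26345, 21708 and 18676 and ranked 67th. Cox7a1, another cytochrome c oxidase subunit of brown fat and muscle, read 20486, 15424 and 19789 and ranked 118th. The lowest of the 6 lay at percentile 99.4, so the labelled tissue's defining markers were present on every array. Fabp3 was the only marker with its highest signal on replicate 1 and its lowest on replicate 4.

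**Figure D1:**
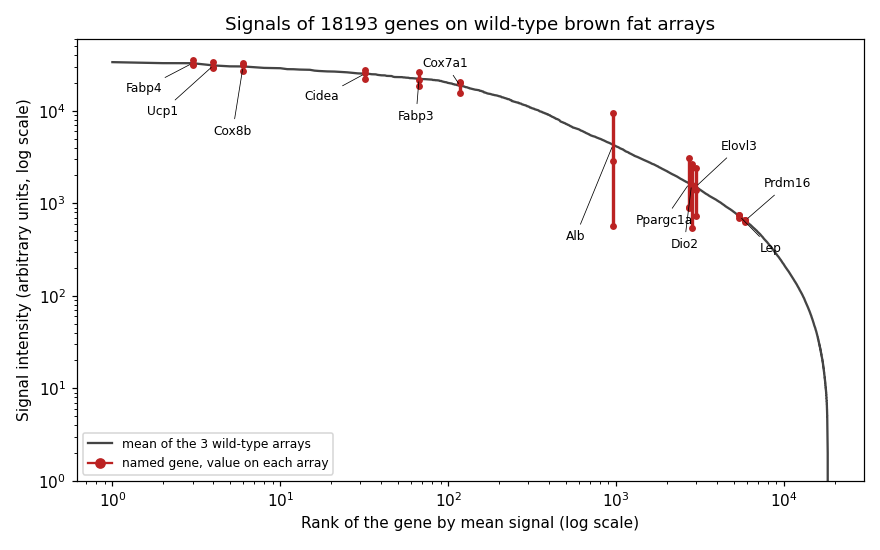
Mean signal of each of the 18193 genes over the 3 wild-type arrays against its rank, both on log scales, with red points for the 3 single-array values of 12 named genes. The 6 brown fat markers sit on the flat top of the curve, while Dio2, Ppargc1a, Elovl3 and Alb lie further down and have single-array values far apart.

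A signal rank places probe sets, not amounts of RNA, because probe sets differ in how strongly they bind their target. The brightest and the second probe set of the same gene differed by a median factor of 1.66, and by 4.57 at the 90th percentile. Ranks next to each other therefore carry no order of their own. The signals were scaled to the same trimmed mean of 500.003 on each array, array medians were 131.5 (replicate 1), 154 (replicate 3) and 144.6 (replicate 4), and no detection calls were used here.

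The 100 brightest genes held 12.2 ± 0.582% (SD, n = 3) of the summed signal of all genes, and their mean signals spanned 20027 to 33614. Of these genes, 90 were among the top 100 on all 3 arrays. Mitochondrial energy metabolism dominated them: 35 belonged to the lists of respiratory chain and ATP synthase subunits, and 54 to these or to the lists of the tricarboxylic acid cycle, mitochondrial carriers and mitochondrial fatty acid oxidation. A further 13 encoded cytosolic ribosomal proteins. The single brightest gene was Hadh, which oxidises hydroxyacyl-CoA in mitochondrial beta-oxidation, at 33821, 31036 and 35984. Car3, a carbonic anhydrase abundant in fat and muscle, followed at 32190, 29679 and 36467.

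The respiratory chain was bright almost throughout. Of 77 measured subunits, 71 were in the brightest 10% of genes, which by definition holds 10% of all genes, and 58 were in the brightest 1%. Their median percentile was 99.4. Complex I had 33 of 34 measured members in the brightest 10% (Ndufb9 at 27589, 24846 and 29198), complex II 4 of 4 and complex III with cytochrome c 10 of 10 (Uqcrb at 30674, 27952 and 32188). Cytochrome c oxidase had 10 of 13, and ATP synthase 14 of 16. The exceptions included Ndufb4 (130, 119 and 99) and Cox7c (319, 483 and 295), which lay far below the other subunits of their complexes. Whether these probe sets report their genes well was not tested.

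The respiratory genes varied little between arrays, as other genes of like signal did. None of the 76 that passed the filter on low signal (a mean log2 value at or above the 40th percentile of genes) differed by 2-fold or more, against 2.3% of all 10916 genes that passed. Their median log2 range was 0.24, against 0.29 for all genes that passed. Spread was smaller for bright genes in general: the median coefficient of variation was 8.36% for the respiratory list and 8.40% for the brightest 10% of all genes, of which 0.714% had a 2-fold range. Replicate 3 was lowest for 71 of the 76, while it was lowest for 34.2% of all genes that passed. With the arrays scaled to the same median it was lowest for 74 (55.9% of all genes), and with quantile normalization for 49 (35.4%), so this order depends in part on the scaling. Nor was the order particular to this list. As deposited, replicate 3 was lowest for 18 of 23 tricarboxylic acid cycle genes and 24 of 34 cytosolic ribosomal protein genes. Of the 100 brightest genes of any kind, 98 read higher on replicate 4 than on replicate 3.

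A promoter of this group is shown because it holds a pair of matches to the motif of NRF1, a factor known for driving respiratory genes. The motif was searched as GCGC, any base and TGCGC, on both strands, in RefSeq windows from 250 bases before to 50 after the first listed start of 14452 measured genes, and the 250 bases before the start are printed. Cox6a1, a cytochrome c oxidase subunit, read 26079, 24405 and 28498 and ranked 23rd. Capitals mark the motif.
Cox6a1 promoter, GRCm38.p6 chr5:115348959-115349208, minus strand: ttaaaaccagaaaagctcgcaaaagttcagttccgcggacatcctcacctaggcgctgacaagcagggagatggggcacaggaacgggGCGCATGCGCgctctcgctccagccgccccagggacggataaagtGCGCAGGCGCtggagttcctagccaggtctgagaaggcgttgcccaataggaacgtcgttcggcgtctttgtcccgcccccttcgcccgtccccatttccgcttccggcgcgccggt

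The NRF1 motif was present in the windows of 15 of 64 respiratory genes (23.4%), against 7.95% of all measured genes and 13.9% of the brightest 10%. Others with it were Atp5g3, Uqcrc1, Sdha and Ndufs5. The element of the oestrogen-related receptors (TNAAGGTCA, both strands) was present in 3 of the 64 (4.69%, against 1.03% of all), in Atp5g3, Ndufb4 and Sdhd. The cyclic AMP response element (TGACGTCA) was present in 4 (6.25%, against 2.68%), including Cycs, the gene of cytochrome c. A match describes these letters only.

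Genes that supply fuel to the chain ranked near the top as well. All 23 measured genes of the tricarboxylic acid cycle were in the brightest 10%, led by Cs, the citrate synthase gene (25306, 24346 and 26407). Mitochondrial fatty acid oxidation had 20 of 21 measured members there, with a median percentile of 99.5. Acadm, the medium-chain acyl-CoA dehydrogenase, read 25559, 24544 and 29160. The lowest of this list was Cpt1a, the liver-type carnitine palmitoyltransferase, at 1632, 1468 and 1584. None of these genes differed by 2-fold between arrays, against 2.3% of all genes that passed the filter and 0.714% of the brightest 10%. Branched-chain amino acid breakdown, which brown fat also uses as fuel, had 16 of 21 members in the brightest 10%, and pyruvate dehydrogenase with its kinases 9 of 12. Pdk4, a kinase that shuts pyruvate dehydrogenase when fat is burned, read 16395, 17941 and 15104.

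Among genes that bring fatty acids in and release them from droplets, 12 of 22 and 15 of 20 were in the brightest 10%. Lpl, the lipase that frees fatty acids from circulating lipoproteins, read 26005, 24750 and 27906. Pnpla2, the first lipase of droplet breakdown, read 21662, 20575 and 21739, a coefficient of variation of 3.05%. Lipe, the next lipase in that path, read 14646, 13813 and 16088. Plin5, a droplet protein that contacts mitochondria, read 11786, 9886 and 12064. Triglyceride and glycerol 3-phosphate synthesis had 10 of 22 there, with Gpd1, which makes glycerol 3-phosphate from a glycolytic intermediate, at 20165, 17741 and 20740. Pck1, which does so from smaller precursors, read 14938, 13466 and 16353. Gyk itself had no probe set paired with it and was not analysed here.

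Fatty acid synthesis had 13 of 21 members in the brightest 10%, and cholesterol synthesis 1 of 20. That exception was Hmgcs1, which makes the precursor of mevalonate, at 16886, 15560 and 18776. The dimmest of the cholesterol list were Mvd (231, 309 and 168) and Dhcr7 (171, 208 and 249). Glycolysis and glucose transport had 11 of 23, with Ldha at 25747, 23996 and 24882.

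**Figure D2:**
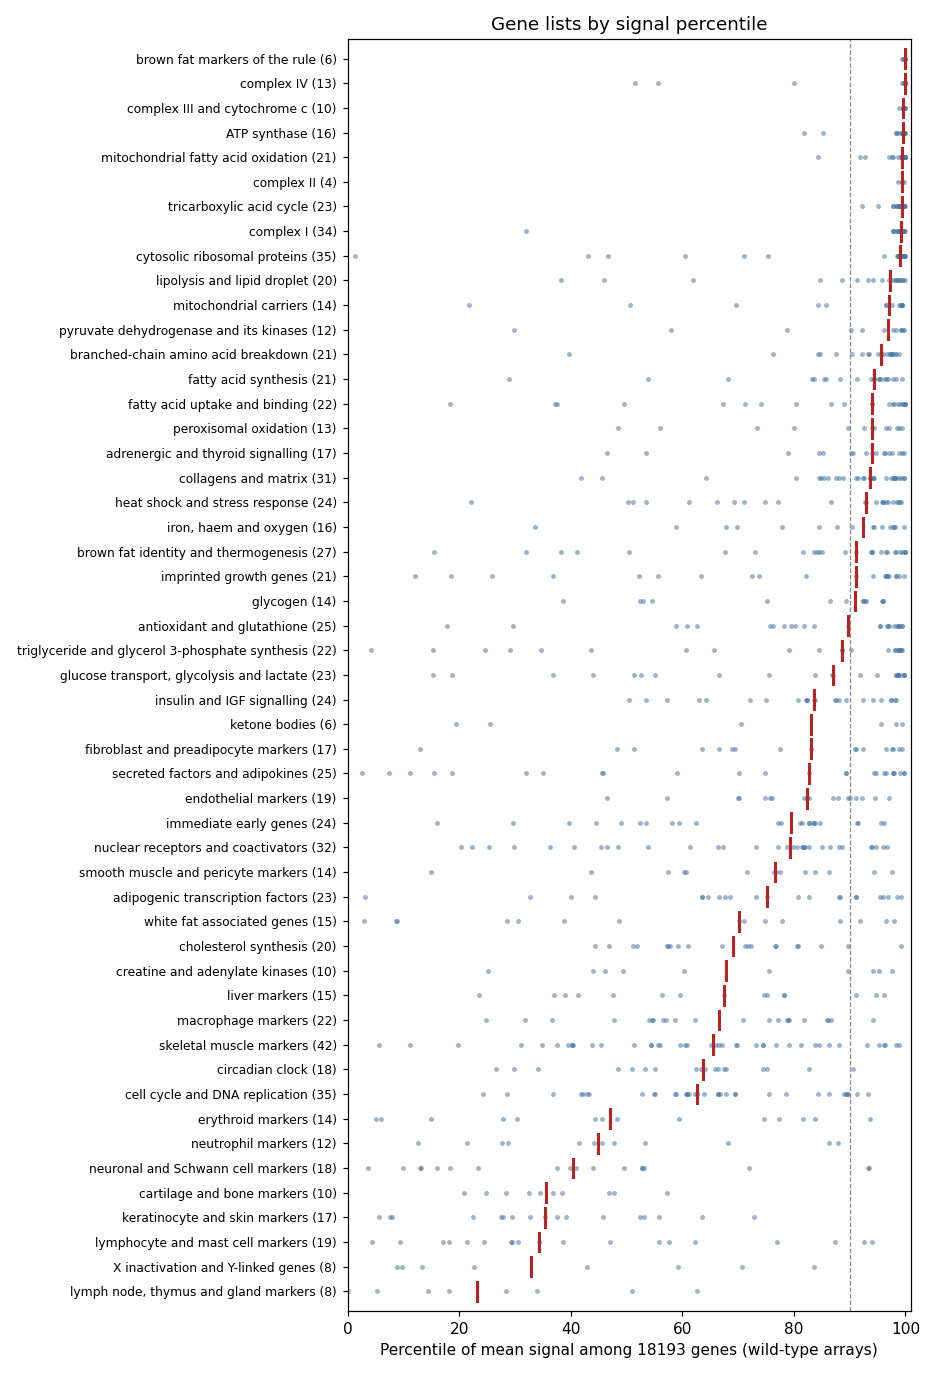
Percentile of mean signal among 18193 genes for the members of each gene list, 1 point per gene, with the number of measured genes after the list's name, a red bar at the list's median and a dashed line at the border of the brightest 10%. The respiratory chain, tricarboxylic acid cycle and mitochondrial fatty acid oxidation lists crowd the right edge, while the keratinocyte and cartilage lists lie further left and reach no further than percentiles 72.9 and 57.2.

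Related genes with different tissue roles lay far apart in rank. Cox6a1 ranked 23rd and its muscle and heart partner Cox6a2 3621st. Cox4i1 ranked 10th and the lung-enriched Cox4i2 8817th. Cox7a2 (8th) and Cox7a1 (118th) were both at the top, as were Cox8b (6th) and Cox8a (57th). Slc2a4, the insulin-responsive glucose transporter, read 5071, 4464 and 3691, and Slc2a1, the widely expressed one, 338, 460 and 267. Dio2, which converts thyroxine to active hormone within brown fat, ranked 2811th, and the liver form Dio1 ranked 17690th. These are ranks of different probe sets and set no ratio between the RNAs.

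The list of brown fat identity and thermogenesis genes had 14 of 27 measured members in the brightest 10%. Letmd1, a mitochondrial protein of brown fat, read 15887, 14845 and 15548. Ppargc1b, a coactivator of mitochondrial genes, read 6838, 6319 and 6022, and Esrra, a nuclear receptor that acts with it, 4028, 3581 and 3565. Ebf2, a factor that commits precursors to the brown lineage, read 2648, 2374 and 3170. Prdm16, which fixes brown fat identity, read 666, 663 and 633, at percentile 67.7. The log2 ranges of these genes were 0.07 to 0.41.

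Of the 24 members of that list that passed the filter, 3 differed by 2-fold or more between arrays, against 2.3% of all genes that passed. The list was chosen with earlier results of these data known, so this count is not independent of them. All 3 genes read lowest on replicate 4, while Ppargc1a and Dio2 were highest on replicate 3 and Elovl3 on replicate 1. Ppargc1a, a coactivator induced by cold and adrenergic signals, read 916, 3106 and 900, so that replicate 3 stood apart from the other arrays. Its 5 probe sets that passed were all highest on replicate 3 and all differed by 2-fold or more (log2 ranges of 1.21 to 2.10). Dio2 read 1581, 2650 and 536, and its 3 probe sets all had replicate 3 highest and replicate 4 lowest. Elovl3, a fatty acid elongase induced by cold, read 2393, 1402 and 730, highest on replicate 1. The Ucp1 signal had a log2 range of 0.20. It lay near the highest signal of each array (33821, 31036 and 36467). Whether a probe set this bright follows changes in RNA was not tested.

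Over the KO arrays these 3 genes had narrower ranges. They were picked here for a wide range in wild type, so narrower ranges on other arrays can follow from that choice. Whether the spread differs between the genotypes was not tested. Ppargc1a lay between 1355 and 1835 on the 4 KO arrays, with a log2 range of 0.43. Dio2 lay between 1071 and 2581, and Elovl3 between 816 and 1421. Dio2 thus had a 2-fold range in both sets of arrays, and Ppargc1a and Elovl3 in the wild-type set.

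**Figure D3:**
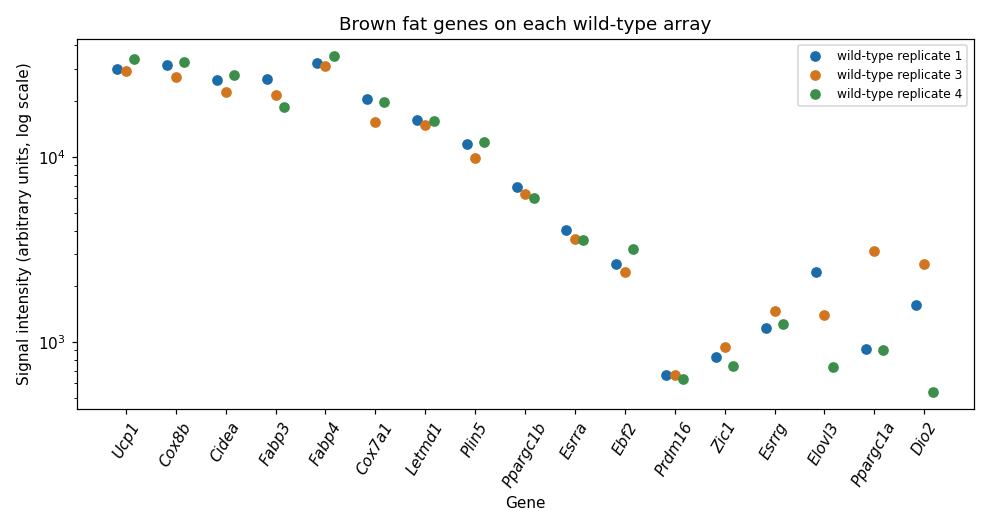
Signal of 17 brown fat genes on each wild-type array, on a log scale, 1 point per array. The points of Ucp1, Prdm16 and Letmd1 lie almost on top of each other, and those of Elovl3, Ppargc1a and Dio2 spread apart, with replicate 3 highest for Ppargc1a and Dio2.

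Signalling genes upstream of thermogenesis were mostly bright, with 12 of 17 adrenergic and thyroid genes in the brightest 10%. Gnas, the stimulatory G protein subunit, read 23133, 22489 and 25873. Prkar2b and Prkaca, subunits of protein kinase A, read 13446, 12582 and 15185, and 8468, 8180 and 8447. Adcy3, an adenylate cyclase, read 5863, 4370 and 2727, and its 4 probe sets that passed all had replicate 1 highest and replicate 4 lowest. The fat cell regulators Cebpa (17466, 15279 and 19272) and Pparg (4391, 5358 and 6058) were among 7 of 23 adipogenic factors in the brightest 10%. Among secreted factors, Adipoq, the adiponectin gene, read 22625, 21404 and 24884. Lep, the leptin gene, read 694, 746 and 743, at percentile 70.2.

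Growth genes of the newborn were bright as well. Of 21 imprinted growth genes, 11 were in the brightest 10%. Dlk1, an inhibitor of fat cell differentiation, read 12557, 14992 and 13031, and Igf2, a fetal growth factor, 11198, 10095 and 10514. Collagens and matrix genes had 20 of 31, with Sparc at 24452, 21954 and 24934 and Col3a1 at 23403, 21417 and 22823. None of the 17 imprinted and 31 matrix genes that passed the filter differed by 2-fold, against 2.3% of all genes that passed. At that share, lists of this size hold few such genes or none. Of 35 cell cycle and replication genes, 2 were in the brightest 10% and 32 passed the filter. Replicate 3 was lowest for 22 of those 32, against 34.2% of all genes that passed. It was lowest for 25 with median scaling, against 55.9% of all genes, and for 23 with quantile normalization, against 35.4%. Mki67, a marker of dividing cells, read 579, 275 and 669.

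Most genes agreed closely between the 3 arrays. The Pearson correlation of log2 signals over the 18193 genes was 0.977 for replicates 1 and 3, 0.977 for 1 and 4 and 0.973 for 3 and 4. This is a correlation across genes, which are not independent replicates. The median coefficient of variation was 8.40% in the brightest 10% of genes and 48.1% in the dimmest 10%. Of 10916 genes that passed the filter, 251 differed by 2-fold or more between arrays. The order with replicate 4 highest and replicate 3 lowest held for 73 of these (29.1%), against 16.5% of all genes that passed. Replicate 4 was at least 2-fold above both others for 29 genes, replicate 3 for 10 and replicate 1 for 9. In the other direction, replicate 3 was at least 2-fold below both others for 22 genes, replicate 1 for 20 and replicate 4 for 13.

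Genes known from liver had the widest differences. Albumin (Alb), the main protein of blood plasma, read 2866 on replicate 1, 569 on replicate 3 and 9470 on replicate 4, a log2 range of 3.99, the widest of all genes that passed. Afp, its fetal counterpart, read 4129, 1004 and 11632. Ttr, a thyroxine carrier, read 1829, 354 and 5931, and Ahsg, a plasma glycoprotein, 609, 136 and 2511. Each was highest on replicate 4 and lowest on replicate 3. Of 15 measured liver markers, 12 passed the filter and 10 of them differed by 2-fold or more, against 2.3% of all genes that passed. The list was chosen with earlier results of these data known, so this count is not independent of them. Replicate 4 was highest for 11 of the 12 and replicate 3 lowest for 11, with the deposited scaling, with median scaling and with quantile normalization alike. Over all genes that passed, replicate 4 was highest for 32.5%, 24.6% and 30.6% and replicate 3 lowest for 34.2%, 55.9% and 35.4% under these scalings.

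Some genes typical of liver and outside that list had the same order. They were named because their range was wide, which leaves out liver genes that varied less. Serpina1b, an antiprotease, read 505, 156 and 1669, Ambp, a plasma protein precursor, 145, 74.4 and 722, and Fabp1, the liver fatty acid binding protein, 214, 69.5 and 525. Creb3l3, a liver transcription factor, had this order too, but with replicates 1 and 4 close together, at 530, 49.5 and 539. The liver list also held 2 members that passed without a 2-fold range, Cyp2e1 (1136, 743 and 825) and G6pc (119, 193 and 231). The 3 that did not pass were Fgb, a fibrinogen chain (89.8, 6.8 and 387.5), Apob, the main protein of low-density lipoprotein (92.9, 96.2 and 256), and Tat, tyrosine aminotransferase (21, 46 and 155), each highest on replicate 4. Where several probe sets read a gene they mostly agreed: 4 of 4 for Ttr and for Apoa1, and 3 of 4 for Afp, differed by 2-fold or more.

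The summed signal of the 15 liver genes was 13229, 4402 and 38969 on the wild-type arrays, or 0.0653%, 0.0230% and 0.196% of all signal. In bulk tissue, fewer cells of a type and less RNA per cell cannot be told apart. Without replicate 4 the number of liver markers with a 2-fold range dropped from 10 to 5, while it was 10 without replicate 1 and 11 without replicate 3. Over the same arrays the sum of the 6 brown fat markers lay between 146655 and 167488. The part that other tissue in the samples has in the liver signal was not tested.

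The promoters of Afp and Alb are shown because the genes lie next to each other on mouse chromosome 5 and varied together on the arrays. The motif of HNF1, a liver factor, was searched as GTTAAT, any base and ATT, and the TATA box as TATAAA, on both strands in the same windows, and the 250 bases before each start are printed with matches in capitals. Afp had an exact match to each, and Alb to neither. The TATAAA match of Afp begins 7 bases before the listed start, and whether it acts as a TATA box was not tested. The printed Alb sequence holds a stretch (gttaatgatc) that differs from the HNF1 letters at the last base only. A search for exact letters cannot show that a site is absent.
Afp promoter, GRCm38.p6 chr5:90490464-90490713, plus strand: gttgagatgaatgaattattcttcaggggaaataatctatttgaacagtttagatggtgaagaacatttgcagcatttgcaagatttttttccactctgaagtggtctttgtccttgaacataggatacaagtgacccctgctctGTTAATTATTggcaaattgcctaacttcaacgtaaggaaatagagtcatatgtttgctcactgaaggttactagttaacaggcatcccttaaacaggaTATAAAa
Alb promoter, GRCm38.p6 chr5:90460620-90460869, plus strand: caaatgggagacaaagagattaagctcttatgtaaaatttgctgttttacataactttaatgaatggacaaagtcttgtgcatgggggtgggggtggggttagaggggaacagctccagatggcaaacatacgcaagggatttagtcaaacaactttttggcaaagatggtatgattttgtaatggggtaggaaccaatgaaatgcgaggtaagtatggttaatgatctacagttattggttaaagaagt

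The HNF1 motif was found in 2 of 13 liver markers with a window (Afp and G6pc, 15.4%), against 0.36% of all measured genes. The TATA box letters were found in 5 (38.5%), among them Apoa2 and Cyp2e1, against 9.87%. The NRF1 motif was found in 0 of the 13.

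Skeletal muscle genes formed the other group that varied together. Myl1, a fast myosin light chain, read 14252, 9195 and 10019. Tnnc2, the fast troponin C, read 8717, 3547 and 4596, Mylpf, a myosin light chain of fast fibres, 8063, 3962 and 4214, and Ckm, the muscle creatine kinase, 6558, 3760 and 3984. Acta1, skeletal actin, varied least among the bright ones, at 15963, 13304 and 12790. All of these were highest on replicate 1. Of 42 measured muscle markers, 35 passed the filter. Of these, 13 differed by 2-fold or more, against 2.3% of all genes that passed. This list too was chosen with earlier results of these data known. Of the same 35, 32 were highest on replicate 1, against 33.6% of all genes that passed. With median scaling 33 were, against 61.2% of all genes, and with quantile normalization 32, against 37.1%.

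The 13 wide members included structural and metabolic genes of mature fibres. Casq1, which stores calcium in fast fibres, read 1406, 449 and 674, and the fast myosin heavy chain Myh1 863, 245 and 285. Myh8, the perinatal myosin heavy chain, read 2111, 904 and 836. Of the muscle regulatory genes, Myod1 read 189, 218 and 200, and Myog 160, 182 and 178, neither of them highest on replicate 1. Both had low signals and were named after their values were seen, and the other regulatory genes of the list are not given here. Without replicate 1, none (0) of the muscle markers had a 2-fold range, and without replicate 3 or without replicate 4 there were 10.

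The summed muscle signal was 89082 on replicate 1, 52832 on replicate 3 and 55795 on replicate 4. On the KO arrays it was 83592, 79960, 49662 and 42386 for KO replicates 1 to 4. Wild-type replicate 1 and KO replicates 1 and 2 have neighbouring accession numbers and the other arrays belong to a later run of numbers. The sums thus lay between 79960 and 89082 in the earlier run and between 42386 and 55795 in the later. The labels name no batch, and whether dissection or another step differed between the runs was not tested.

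The Acta1 promoter is shown as that of the brightest muscle marker, with its match to the TATA box letters in capitals. This match begins 7 bases before the listed start, and whether it acts as a TATA box was not tested. The TATA box letters were present in the windows of 9 of 34 muscle markers (26.5%), including Myh1, Myh8 and Myl1, against 9.87% of all measured genes. The MEF2 motif, searched as CTA, any 4 bases and TAG, was present in 4 (11.8%, in Des, Ldb3, Myf5 and Ttn), against 3.34%. It overlapped the TATA box in 24 of all promoters.
Acta1 promoter, GRCm38.p6 chr8:123894776-123895025, minus strand: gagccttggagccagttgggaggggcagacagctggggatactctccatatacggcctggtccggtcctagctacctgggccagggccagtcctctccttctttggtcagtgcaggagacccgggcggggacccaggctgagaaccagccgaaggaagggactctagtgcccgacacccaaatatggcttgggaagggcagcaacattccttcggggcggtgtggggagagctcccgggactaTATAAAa

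**Figure D4:**
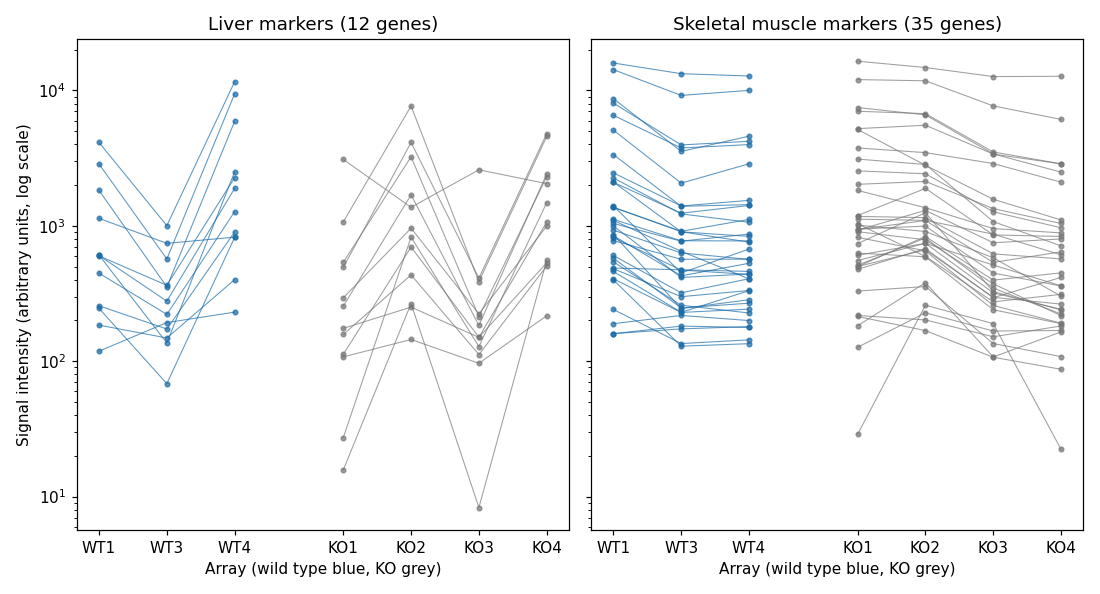
Signals of the liver markers (12) and skeletal muscle markers (35) that passed the filter on each of the 7 arrays, on a log scale, 1 line per gene, wild type in blue and KO in grey. In wild type, 11 of the 12 liver lines are lowest on replicate 3 and 32 of the 35 muscle lines are highest on replicate 1.

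Lists that mark other cell types differed among themselves. Median percentiles were 83.0 for fibroblast and preadipocyte, 82.4 for endothelial and 76.6 for smooth muscle and pericyte markers, against 65.5 for skeletal muscle and 67.5 for liver markers. Cd24a, a surface protein of preadipocytes, read 1420, 720 and 2193, with a 2-fold range on 3 of 3 probe sets, and Slc4a1, the anion exchanger of red cells, 864, 544 and 1278. Of 22 macrophage markers, 1 was in the brightest 10% (Csf1r, a growth factor receptor, at 3714, 4188 and 3907). None of the 19 that passed the filter differed by 2-fold, against 2.3% of all genes that passed. Endothelial markers had 5 of 19 in the brightest 10%, led by Gpihbp1, which holds Lpl on capillaries, at 7109, 6736 and 6526. Replicate 1 was lowest for 12 of these 19 genes, against 33.6% of all genes that passed. It was lowest for 9 with median scaling, against 13.6% of all genes, and for 12 with quantile normalization, against 29.3%. Mast cell genes stood out among lymphoid and mast cell markers: Cma1 read 3915, 4120 and 3503 and Cpa3 2831, 3453 and 3086, while the T cell gene Cd3d read 10.9, 8.1 and 22.5. The Y-linked gene Eif2s3y read 1566, 1516 and 1434 and Xist 183, 188 and 219, with all 3 arrays labelled male.

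Other genes with a 2-fold range lay outside the liver and muscle lists. Atf3, a stress-induced factor, read 427, 486 and 17.1, and Krt1, a skin keratin, 457, 447 and 23.9, so that replicate 4 stood far below the others for both. Fos, an immediate early gene, read 1702, 1940 and 858, also lowest on replicate 4, and Ddit4, a stress gene, 4151, 3252 and 8125. Pnpla3, a lipase-related gene, read 581, 1162 and 3083. For some of these genes the other probe sets did not repeat the range. Gpaa1 read 661, 383 and 4626 on its brightest probe set (log2 range 3.49), and 2 of its 3 probe sets stayed under 2-fold.

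A second probe set gave a reading not used to choose these genes. Among 4546 genes with a second probe set that passed, 156 (3.43%) had a 2-fold range on it. Of the 251 wide genes, 67 had such a probe set, and it was 2-fold or wider for 23 of them (34.3%). These shares are not matched for signal. The remaining 184 had no second probe set that passed.

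The KO arrays gave another reading. Over the 4 KO arrays, 7.26% of all 10916 genes had a 2-fold range, and 3.88% without KO replicate 2. Of the 251 genes wide in wild type, 126 (50.2%) were also wide among the KO arrays, and 99 (39.4%) without KO replicate 2. KO replicate 2 stood apart from the other arrays in Xist, at 2757 against at most 273 on the others, although it is labelled male. All 10 wide liver markers were wide among the KO arrays, with and without that replicate. Of the 13 wide muscle markers, 11 were, and 9 without it. Among the 228 wide genes on neither list, 105 (46.1%) were, and 80 (35.1%) without it. Each group had fewer than 5 arrays, and ranges over more arrays are wider by construction.

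**Figure D5:**
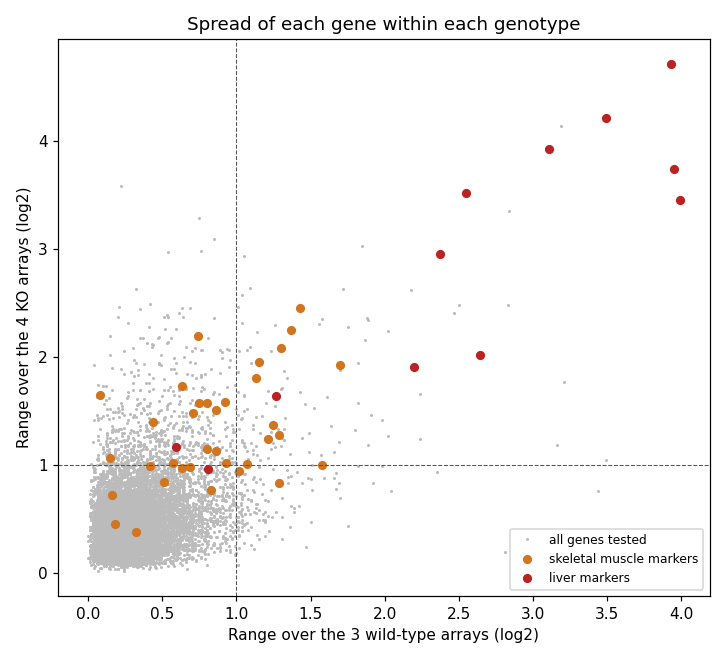
Log2 range of each gene over the 3 wild-type arrays against its range over the 4 KO arrays, with grey points for all 10916 genes that passed the filter. Coloured points mark liver and skeletal muscle markers, and dashed lines a 2-fold range (log2 of 1). The 10 wide liver markers lie in the upper right, with Alb at 3.99 on the wild-type axis.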

How the data were processed

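Brown fat RNA had been extracted with Trizol and labelled with biotin, per the labels' protocols. Each probe set has 1 deposited intensity per array, on a linear scale, and the submitters' processing notes list GCOS 1.2. The scaling steps and genome build are not given in the sources used here. Arrays carry no count depth, so their number limits the precision.

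Of 45101 probe sets, 64 controls were left out. The rest held 34945 with 1 gene symbol, 932 with several and 9160 with none, and only the first kind was used. Several bright globin probe sets name more than 1 gene and were left out in this way. No gene's level was compared between genotypes and no test was run on the wild-type arrays, which form 1 group. The only test, for an outlying KO array, is described below. Spread is the range of log2(signal + 30.6) over the arrays of 1 genotype, where the offset is the 20th percentile over all arrays, and it was read on the 10916 genes with a mean at or above the 40th percentile of genes. A range on this scale understates differences at low signal. The counting of ranges was tested on simulated data.

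Of 1130 entries in 53 gene lists, 1021 were measured. The members and lists were chosen with earlier results of these data known, so counts of list members are not independent of the data. Genes named are the 30 brightest, the 15 with the widest range, up to 4 of the highest and 2 of the lowest signal in each list, every list member with a 2-fold range, the markers and the related gene pairs. Letmd1, Ppargc1b, Esrra, Ebf2, Prdm16, Adipoq, Lep, Myod1, Myog and others not covered by this rule were named after their values were seen. Promoter sequences are RefSeq's (GRCm38.p6), matched by symbol for 14452 genes, and carry the first start listed.

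Alternatives were median scaling, quantile normalization, other offsets and filters, the median over a gene's probe sets, leaving out probe sets that can bind several transcripts, ranking by mean log2 and leaving out each array. Python 3.11.15, pandas 2.3.3, numpy 2.4.6, scipy 1.17.1 and matplotlib 3.10.9 were used.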

Additional observations from a re-analysis of the deposited data

Results flagged for a closer look

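Summed signals of 15 lists, those that mark other cell types and that of Xist and Y-linked genes, were compared over the 4 KO arrays for 1 array lying apart from the other 3, and 2 lists had such an array. The 3 wild-type arrays are too few for this comparison. For smooth muscle and pericyte markers, KO replicate 2 summed to 20606 and the other KO arrays to between 16565 and 16944. For white fat associated genes, KO replicate 2 summed to 25163 and the others to between 16410 and 16785. Chance alone marks about 1 in 20 groups.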

How the results depend on the processing

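All 6 markers stayed in the brightest 10% under every alternative run. The 90 genes shared by the top 100 of all arrays went to between 89 and 94. The 383 list members in the brightest 10% went to 297 without probe sets that can bind several transcripts, which leaves fewer genes to read, and to between 380 and 385 under the others. The count of genes with a 2-fold range depended on the filter and offset: from 251 it went to 1978 with no filter, 88 with a filter at the 60th percentile and 145 with an offset at the 40th percentile, and to between 90 and 123 without 1 wild-type array. Counts also fall with fewer arrays by construction. Of the 251 genes, 207 were called with median scaling and 220 with quantile normalization. List members with a 2-fold range went from 49 to 82 with no filter, 30 with the stricter filter and between 19 and 32 without 1 wild-type array. Genes wide in both sets went from 126 to 935, 51 and 75 under the same filters and offset, to between 46 and 70 without 1 wild-type array and between 99 and 107 without 1 KO array. Wide liver markers went from 10 to 6 without probe sets that can bind several transcripts, and to between 5 and 11 without 1 wild-type array. Wide muscle markers went from 13 to between 0 and 10 without 1 wild-type array, the 0 being without replicate 1. The share of signal in the top 100 genes went from 12.2% to 14.9% with the median over probe sets and 14.99% without probe sets that can bind several transcripts, and in both cases the cause was not tested. Of 360 named genes, 154 had their mean signal moved by more than 1 SD with the median over probe sets. No paired analysis was possible because the results come from no test. Signals near the bottom of the range are the least precise.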

Other observations

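Cytosolic ribosomal protein genes had the smallest median range of the 53 lists. Of 35 measured, 29 were in the brightest 10%, and the 34 that passed the filter had a median log2 range of 0.16, against 0.29 for all genes that passed. Their median coefficient of variation was 5.92%, against 8.40% for the brightest 10% of all genes. Rps29, a small subunit protein, read 28563, 25537 and 29474, and Rplp0, a stalk protein of the large subunit, 22365, 20139 and 23914. Rps16 read 1.8, 3.5 and 15.8 on its only named probe set, at the bottom of the signal range.

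The circadian clock list and the immediate early list had wider median ranges than all genes that passed. The clock list had 1 of 18 measured members in the brightest 10% and a median log2 range of 0.46 over the 15 that passed. Bhlhe40, a repressor in the clock, read 756, 1441 and 572. Immediate early genes had a median percentile of 79.4 and 4 of 24 in the brightest 10%, led by Dusp1, a phosphatase induced by stress, at 6482, 5522 and 4453. Their median log2 range was 0.47, and replicate 4 was lowest for 11 of the 21 that passed under each of the deposited, median and quantile scalings, against 32.2%, 30.5% and 35.3% of all genes that passed. Atf3 and Fos belong to this list.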
